A study of Mus musculus with 12 samples.

Results

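The imprinted domain that runs from H19 and Igf2 to Kcnq1ot1 and Cdkn1c on mouse chromosome 7 held 102 of the 107115 candidate regions of a methylation table from bone marrow progenitors. Members were all tabulated regions that overlap 142.56 to 143.52 Mb (mm10), whether or not the authors listed them as changed. One group carried a mutation of Dnmt1, whose enzyme restores methylation on newly made DNA strands when cells divide. The labels write this genotype as dnmt1-/-, whereas the series design speaks of 1 specific mouse mutation, designed after fish alleles with single amino acid changes that weaken the enzyme. The other group was wild type, and both genotypes were on the inbred BALB/c strain. All DNA came from lineage-negative bone marrow progenitors, cells depleted of mature blood lineages, which are a mixture of stem and progenitor types that the file names call HSC. The labels list 12 samples, 1 bisulfite and 1 enzymatic library for each replicate number, and the table has 3 replicate columns per genotype. Whether a column holds 1 or both of these libraries is not stated. Nothing in the labels says that the numbers are separate animals, so the spread between replicates may be technical. Age and sex are not given, and no marker gene could be checked in DNA methylation levels.

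Imprinted genes are expressed from 1 parental allele, and a control region that is methylated on only 1 of the parental alleles sets which one. In the H19 and Igf2 part of the domain, the control region upstream of H19 is methylated on the paternal allele, which silences H19 and lets Igf2, a fetal growth factor gene, use shared enhancers. In the Kcnq1 part, the control region at the start of the noncoding RNA Kcnq1ot1 is methylated on the maternal allele, and the paternal RNA silences its neighbours, among them the growth inhibitor gene Cdkn1c. Both control regions are set in the germ line, whereas the methylation of the paternal Cdkn1c promoter is added after fertilisation. A region methylated on 1 allele gives a level near the middle of the scale. Levels here combine both alleles, and which allele carried the methylation was not measured.

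Promoter windows from RefSeq (GRCm38.p6, the assembly that mm10 names) overlapped a member at Kcnq1ot1, Th and Tssc4. They are shown because their regions had different outcomes: a middle level with nearly equal means in mutant and wild type at Kcnq1ot1, a high level that was lower in the mutant at Th, and almost no methylation in either at Tssc4. The windows do not cover the middle-level regions that were far lower in the mutant, such as those at Cdkn1c. Each runs 5′ to 3′ on the gene's strand, with capitals for the CpGs that lie inside the tabulated region. Those of Kcnq1ot1 and Th cross the start of the RefSeq gene span. The Tssc4 window does not: it lies inside the span, and its region begins 0.69 kb downstream of the span's start. A different region, 0.1 kb downstream of that start, had 77.0% in wild-type cells and 47.0% in mutant cells. Windows were given for 10 of the 15 genes of the domain list.
Kcnq1ot1 (minus strand, chr7:143296498-143296797): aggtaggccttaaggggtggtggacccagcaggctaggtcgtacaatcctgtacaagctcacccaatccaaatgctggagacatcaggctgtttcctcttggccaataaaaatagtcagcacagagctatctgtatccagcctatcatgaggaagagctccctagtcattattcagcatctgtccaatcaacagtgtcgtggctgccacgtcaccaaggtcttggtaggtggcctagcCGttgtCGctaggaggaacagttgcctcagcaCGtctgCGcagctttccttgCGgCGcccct
Th (minus strand, chr7:142899946-142900245): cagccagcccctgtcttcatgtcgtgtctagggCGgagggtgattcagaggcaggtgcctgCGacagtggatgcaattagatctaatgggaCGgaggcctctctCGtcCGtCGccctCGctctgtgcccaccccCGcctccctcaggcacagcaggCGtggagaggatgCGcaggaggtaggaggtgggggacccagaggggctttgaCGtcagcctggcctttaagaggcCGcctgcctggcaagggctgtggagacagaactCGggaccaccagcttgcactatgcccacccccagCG
Tssc4 (plus strand, chr7:143069118-143069417): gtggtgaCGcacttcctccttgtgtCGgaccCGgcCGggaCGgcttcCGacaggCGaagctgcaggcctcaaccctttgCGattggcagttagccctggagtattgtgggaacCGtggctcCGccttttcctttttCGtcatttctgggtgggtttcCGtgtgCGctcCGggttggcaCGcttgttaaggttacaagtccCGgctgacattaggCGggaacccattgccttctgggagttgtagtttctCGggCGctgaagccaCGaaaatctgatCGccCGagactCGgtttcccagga
The Kcnq1ot1 window held 9 CpGs, of which 6 lay in its region. The Th window held 15, with 14 in its region, and all 23 of the Tssc4 window lay in its region.

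The candidate regions were chosen by the authors' search for methylation differences between these same columns, so every difference below describes the values that chose the regions and is not a test. Over the 102 members, methylation averaged 48.2% ± 1.31 in mutant cells and 66.2% ± 0.362 in wild-type cells (± SD, n = 3 per genotype). Mutant replicates had 46.9%, 48.2% and 49.5%, and wild-type replicates 65.8%, 66.2% and 66.5%, so the groups stood apart. Differences of single members, mutant minus wild type, had a median of -16.7 points and quartiles of -24.3 and -11.5, against a median of -16.6 points over all candidate regions. Within the domain they ran from -59.9 points in Th to 6.85 points upstream of H19, the widest loss and the only gain above 2 points.

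**Figure D1:**
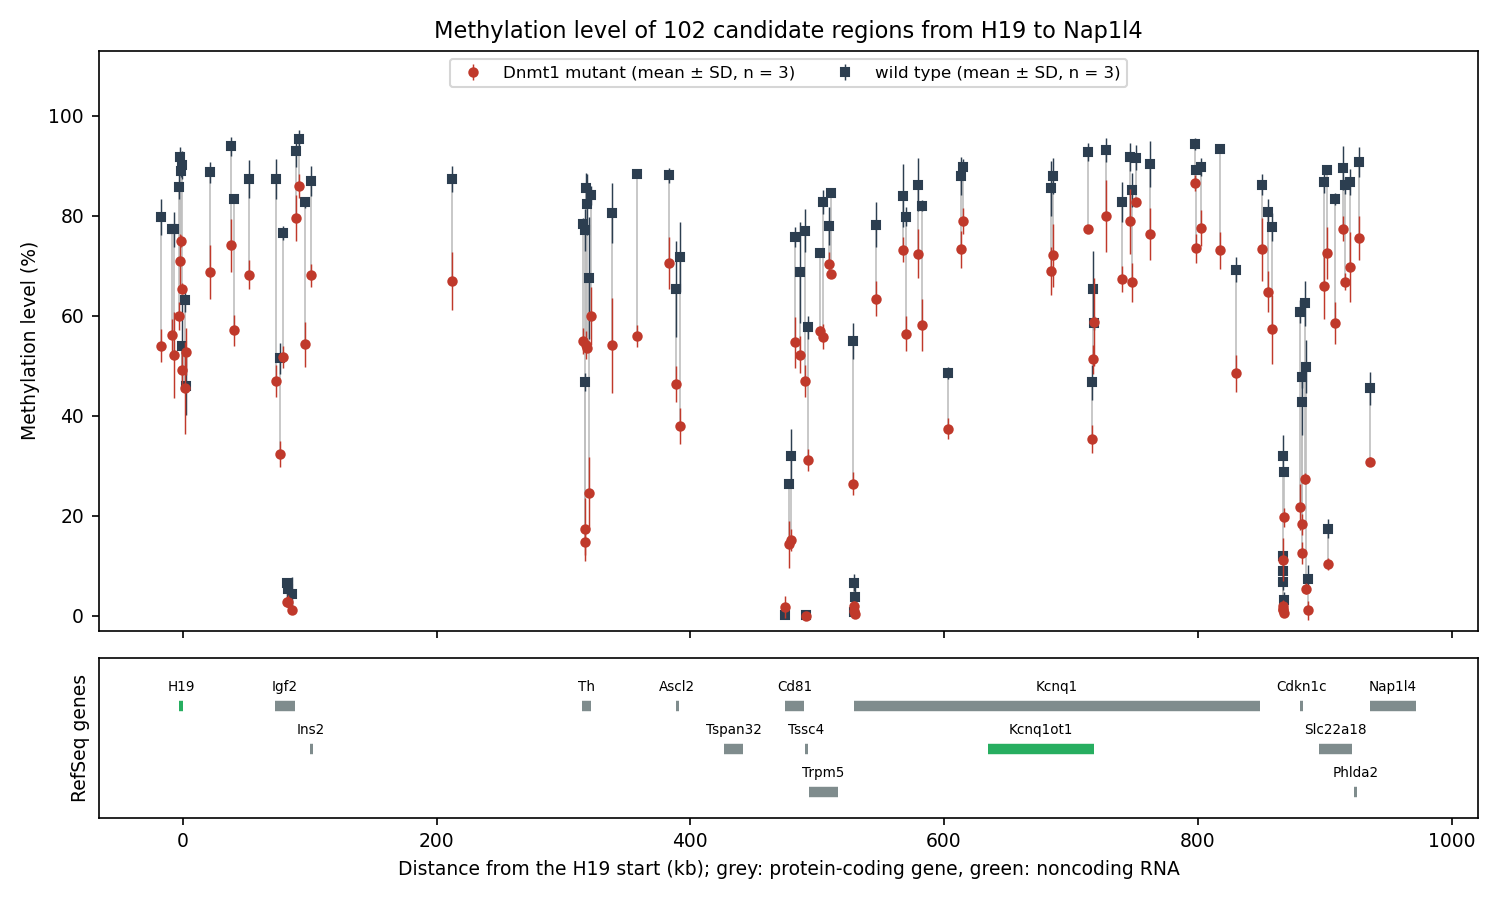
Mean methylation level in percent (± SD, n = 3) of the 102 regions in Dnmt1 mutant (circles) and wild type (squares) by distance from the H19 start in kb, with the RefSeq genes of the domain below. Circles lie under their squares at 98 of 102 regions, with nearly equal pairs beside H19 and at the start of Kcnq1ot1, and the longest gaps at Th and Cdkn1c.

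The authors' deposited hypomethylated list held 39 of the members, against 33.1% of all candidate regions, and the hypermethylated list 0, against 0.00373%. The limma fit over the whole table called 90 members lower, where the share over all candidate regions was 93.5%. It called 0 members higher at an adjusted p under 0.05, where the share over all regions was 0.0485%, and 0 at an unadjusted p under 0.05. In 95 members the highest mutant replicate lay under the lowest wild-type one, against 94.3% of all candidate regions, and in 0 members the replicates were separated the other way, against 0.0952%. The mutant mean was at or above the wild-type mean in 4 members, against 0.949% of all candidate regions: the region 2.35 kb upstream of H19, the Kcnq1ot1 start, and 1 nearly unmethylated region each at Cd81 and Kcnq1. These calls restate how the regions were chosen. The share with separated replicates, 93.1%, and the median difference lay near the background, and the share called lower was 88.2%. The share with a mutant mean at or above the wild type was 3.92%, above the background, but rests on 4 members. Mean levels over all candidate regions were higher than in the domain, at 60.5% in mutant and 78.5% in wild-type cells. The 12 members that were not called fell into 2 kinds: 9 had a wild-type level of 10% or less, and 3 had a level between 35% and 65%. Those 3 lay at the H19 start, upstream of H19 and at the Kcnq1ot1 start. They were also the only ones of the 16 members of middle level whose replicates overlapped between genotypes. Over all candidate regions, 186 of the 7513 in that middle range were not called, and 301 had overlapping replicates. At 10% or less, 3907 of 4514 candidate regions were not called.

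H19, a noncoding RNA expressed from the maternal allele, was less methylated in its body in the mutant, and had overlapping levels at its start and at 1 of 2 upstream regions. In the body, 3 regions averaged 70.4% ± 1.80 in mutant cells and 90.3% ± 1.11 in wild-type cells (± SD, n = 3 per genotype). These 3 were grouped after the values were seen. The region over the microRNA gene Mir675 (chr7:142577005-142577577) had 66.7%, 64.6% and 65.1% in mutant replicates, against 86.9%, 91.8% and 91.7% in wild-type replicates. The mutant replicates were alike and lay more than 20 points below the lowest wild-type replicate. Both mature microRNAs of that hairpin are given with their seeds in capitals, since the DNA that encodes them lies in this less methylated region.
miR-675-5p: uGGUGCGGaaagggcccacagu
miR-675-3p: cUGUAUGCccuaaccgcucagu

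At the start of H19 (chr7:142577778-142578064, within the RefSeq span), mutant replicates had 49.9%, 45.1% and 52.3%, against 43.8%, 61.3% and 56.8% in wild-type replicates. The genotypes overlapped through wild-type replicate 1, the lowest of all 6 replicates, and the difference was -4.87 points beside a wild-type SD of 9.09. Without that replicate the difference was -9.95 points, the genotypes no longer overlapped and limma called the region lower (adjusted p = 0.0191). Over all single replicates left out, the difference ran from -9.95 to -1.20 points, the smallest without wild-type replicate 2. A second region 2.35 kb upstream of the start (chr7:142580498-142580929), on the side of the control region, had 55.4%, 55.6% and 47.4% in the mutant and 47.7%, 39.6% and 50.7% in the wild type. Here the mutant mean of 52.8% ± 4.65 was above the wild-type mean of 46.0% ± 5.75 by 6.85 points (± SD, n = 3 per genotype), with overlapping replicates. Without mutant replicate 3, the lowest of its group, the difference was 9.54 points and limma called it higher (adjusted p = 0.0293). Without wild-type replicate 2, likewise the lowest of its group, the difference was 3.65 points and was not called.

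Between these, 1.51 kb upstream of H19 (chr7:142579659-142580128), the mutant had 35.1%, 49.0% and 52.6%, against 61.6%, 65.9% and 62.1% in the wild type. This region was lower by 17.6 points on average, and its genotypes did not overlap, but the mutant replicates spread with an SD of 9.26. Averaged over the 3 regions from the H19 start to 5 kb upstream, a set chosen after the values were seen, mutant cells had 49.2% ± 2.09 and wild-type cells 54.4% ± 2.95 (± SD, n = 3 per genotype). On the other side, downstream of the gene, the regions 2.83 kb and 6.36 kb from the start were lower by 25.8 and 25.1 points and stood in the authors' deposited list.

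The 3 tabulated regions at the start of Kcnq1ot1 also had middle levels in the wild type. The region that holds the RNA's start (chr7:143295994-143296557), which the promoter window above enters, had 58.6%, 67.5% and 49.9% in mutant replicates, against 59.3%, 59.6% and 57.1% in wild-type replicates. Means were 58.7% ± 8.81 in mutant cells and 58.6% ± 1.38 in wild-type cells, so they differed by 0.0476 points while the mutant replicates spread on both sides of the wild type. Leaving out single replicates moved this difference between -4.37 and 4.44 points.

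Further into the RNA the loss was larger. The region 0.82 kb downstream of the start (chr7:143295608-143295730) had 48.0%, 53.3% and 52.7% in the mutant, against 61.5%, 74.1% and 60.5% in the wild type. The region 1.29 kb downstream (chr7:143295091-143295258) had 38.0%, 35.8% and 32.3% in the mutant, against 45.8%, 43.8% and 50.6% in the wild type. Neither region overlapped between genotypes, with differences of -14.1 and -11.3 points. Over these 3 regions the mutant averaged 48.5% ± 3.62 and the wild type 56.9% ± 1.96 (± SD, n = 3 per genotype), so the mutant stood at 85.1% of the wild-type level. That set, too, was chosen after the values were seen. The other 3 regions of the Kcnq1ot1 span, more than 4 kb from its start, were highly methylated in the wild type and were lower by 15.3 to 16.6 points. None of the 6 regions of Kcnq1ot1 was in the authors' deposited list, against 33.1% of all candidate regions, and nothing is read from so few regions. Limma called 5 of the 6 lower, where the share over all candidate regions was 93.5%.

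Cdkn1c, which encodes the cell cycle inhibitor p57, had far lower levels in the mutant at 5 regions whose wild-type levels were also in the middle range. Within the gene, close to its start (chr7:143460259-143460955), mutant replicates had 11.7%, 15.1% and 10.8%, against 45.6%, 49.7% and 47.9% in wild-type replicates. This was the listed member with the most CpGs, 60, and with a metilene q of 5.4e-33 in the authors' deposited table. Every mutant replicate lay at least 30 points below the wild type. The next region into the gene (chr7:143459569-143460244, 44 CpGs in the authors' deposited table) had 16.3%, 18.2% and 20.4%, against 35.2%, 45.5% and 47.4%. The genotypes were apart here too, with wild-type replicate 1 the lowest of its group.

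The largest loss at Cdkn1c lay upstream of the gene. The region 2.59 kb upstream (chr7:143463648-143463943) had 5.0%, 4.67% and 6.67% in mutant replicates, against 55.6%, 45.2% and 48.8% in wild-type replicates. Mutant levels there were 10.9% of the wild-type mean. A region 1.57 kb upstream (chr7:143462626-143463430) had 27.4% ± 1.11 in mutant cells and 62.5% ± 4.53 in wild-type cells (± SD, n = 3 per genotype). Toward the 3′ end of the gene (chr7:143458934-143459263) the levels were 21.8% ± 4.60 in mutant cells and 60.8% ± 2.34 in wild-type cells (± SD, n = 3 per genotype). All 5 of these regions were in the authors' deposited list. Of the 7513 candidate regions between 35% and 65% in the wild type, 4963 were listed. Together the 5 regions averaged 17.1% ± 1.36 in mutant cells and 52.7% ± 1.61 in wild-type cells (± SD, n = 3 per genotype). This set of 5 was chosen after the values were seen. The sixth region of the gene, 3.71 kb upstream, had 1.09% in the mutant, against 7.42% in the wild type. Its call was lost without mutant replicate 1 or 2 and without wild-type replicate 1 or 3, where the difference was -6.14 to -5.05 points.

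**Figure D2:**
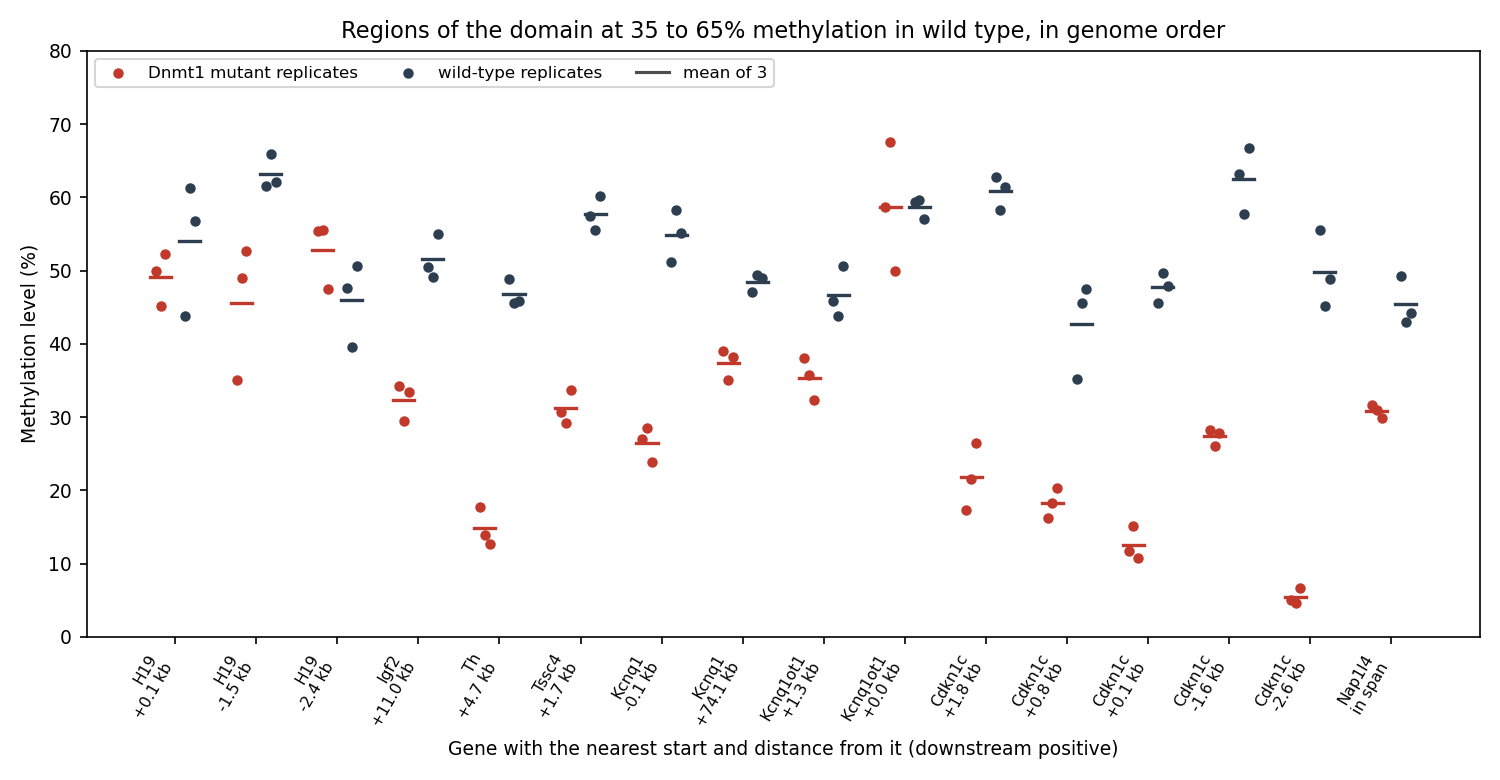
Methylation level in percent of the 16 regions of the domain that lay between 35 and 65% in wild type, with 3 Dnmt1 mutant replicates left of 3 wild-type replicates for each region and a bar at each mean; the axis names the gene with the nearest start and the distance from it. Genotypes overlap at the H19 start, 2.35 kb upstream of H19 and at the Kcnq1ot1 start, and are far apart at the 5 Cdkn1c regions.

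Across the range of levels, the members were set beside all candidate regions of the same wild-type level. The 49 members above 80% had a median difference of -17.0 points, against -15.6 over all candidate regions of that range. For the 19 members between 65% and 80% the median was -21.3, against -25.2, and for the 6 between 10% and 35% it was -11.5, against -11.8. The 12 members at or under 10% had a median of -3.31, against -1.78 over all candidate regions. Mutant replicate 1 was the lowest mutant replicate at 49 members and replicate 3 the highest at 47. This order was not particular to the domain: over all candidate regions, mutant replicates 1, 2 and 3 averaged 58.3%, 60.6% and 62.8%.

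The contrast between H19, Kcnq1ot1 and Cdkn1c was set against candidate regions of like wild-type level. Of the 7513 candidate regions between 35% and 65% in the wild type, the median difference was -24.4 points (quartiles -31.6 and -18.1), and 0.626% had a mutant mean at or above the wild-type mean. The 16 members in that range had a median of -21.8 points, and 2 of them had such a mean. In 5-point bins of wild-type level, 5 of the 102 members lay above the 95th percentile of all candidate regions and 7 below the 5th percentile, where 5% is the share on each side by construction. Those above were the H19 start, the region 2.35 kb upstream of H19, the Kcnq1ot1 start, 1 region of Trpm5 and 1 of Kcnq1. Those below lay at Mir675 in H19, at Igf2, at Th (2 regions), between Th and Ascl2, near the Kcnq1 start and 2.59 kb upstream of Cdkn1c. These places are a description, since the bins use the same samples, and whether 1 locus differs from another was not tested.

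**Figure D3:**
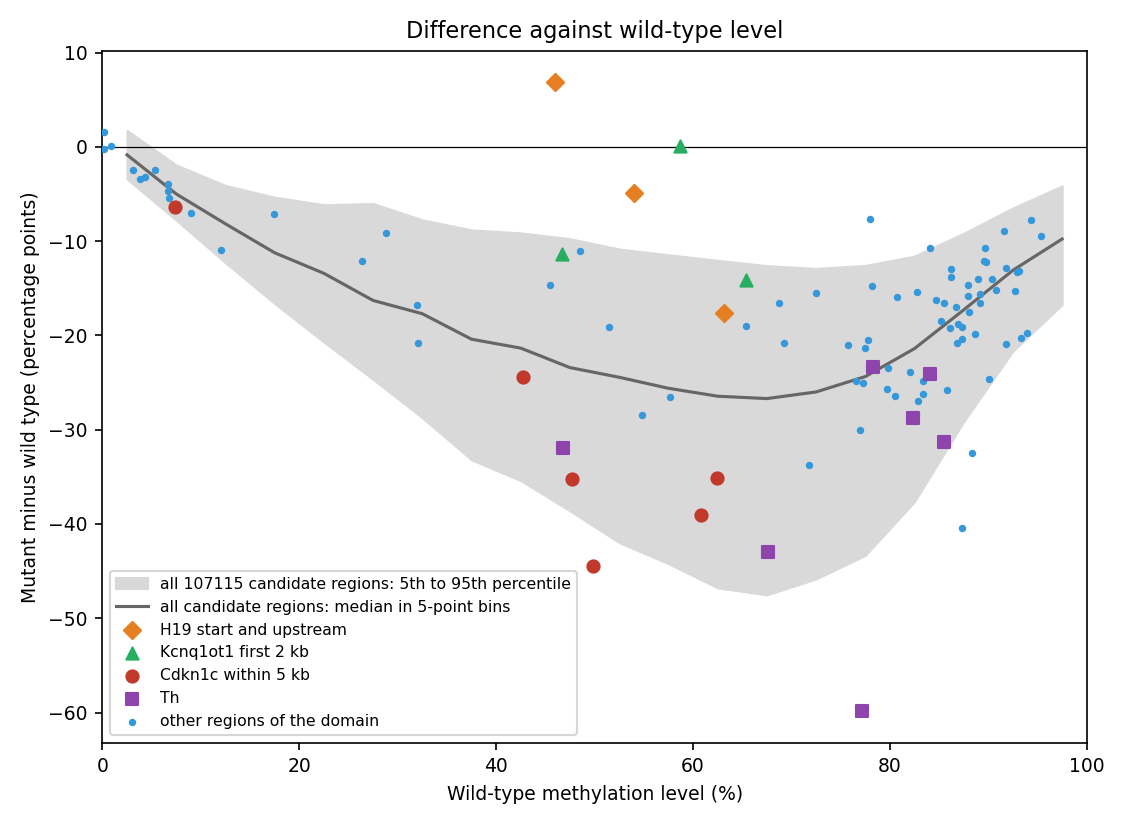
Difference in methylation level, mutant minus wild type in percentage points, against the wild-type level in percent for the 102 members (symbols by locus) and for all candidate regions (band from the 5th to the 95th percentile and median, in 5-point bins). The H19 upstream region at 6.85 points and the Kcnq1ot1 start at 0.0476 points lie above the band, and 1 Cdkn1c region at -44.4 points lies below it.

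Igf2 had a mixed profile along its span. Near its 3′ end (chr7:142651340-142651754) mutant replicates had 49.2%, 43.2% and 48.2%, against 85.3%, 84.8% and 92.0% in wild-type replicates, a separation of over 35 points. The next region, which holds the microRNA gene Mir483 (chr7:142653737-142655786), had 34.3%, 29.4% and 33.4% in the mutant, against 50.5%, 49.1% and 55.0% in the wild type. It was lower by 19.2 points from a middle wild-type level, just short of the 20 points that listed regions reach. The mature microRNAs of Mir483 lie inside that region and are shown with their seeds in capitals, and none of the 4 seeds in the domain was shared.
miR-483-5p: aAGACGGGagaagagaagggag
miR-483-3p: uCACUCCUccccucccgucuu
A group of 3 short regions farther up the gene, over the antisense RNA Igf2os, had mutant means of 1.19% to 2.85% and wild-type means of 4.37% to 6.63%. None was called in the main limma fit, and all 3 were called lower by limma on the logit scale. The region chr7:142659793-142660100 was also called lower on the percent scale with a trend in the prior variance. Upstream of the Igf2 start, the region at 0.79 kb had 79.6% in the mutant, against 92.9% in the wild type, and the region at 2.56 kb had 85.9%, against 95.4%. At Ins2, an insulin gene, the region over the start had 68.1% ± 2.30 in mutant cells and 86.9% ± 2.97 in wild-type cells (± SD, n = 3 per genotype).

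Th encodes the rate-limiting enzyme of catecholamine synthesis. It was the gene of the domain where every region in its span or within 5 kb was listed. Over all candidate regions the listed share was 33.1%, and by gene span alone all 3 regions of Cdkn1c were listed as well. The 7 Th regions averaged 39.9% ± 0.513 in mutant cells and 74.5% ± 2.80 in wild-type cells (± SD, n = 3 per genotype). The largest difference of the domain lay inside the gene (chr7:142895314-142895736), with 24.2%, 11.7% and 15.9% in mutant replicates, against 78.8%, 80.4% and 72.3% in wild-type replicates. All mutant replicates there were under 25% and all wild-type replicates over 70%. At the region over the Th start (chr7:142899739-142900210), whose CpGs are capitals in the window shown above, mutant replicates had 55.2%, 58.3% and 66.5%, against 86.2%, 82.3% and 83.7% in wild-type replicates. The region 1.5 kb into the gene had 24.6% ± 7.20 in mutant cells and 67.6% ± 12.2 in wild-type cells (± SD, n = 3 per genotype), the widest wild-type spread of the domain.

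Between Th and Kcnq1 the members ranged from almost unmethylated stretches just inside Cd81 and Tssc4 to highly methylated regions that were lower in the mutant. Upstream of Ascl2, which encodes a transcription factor of the placenta and of intestinal stem cells, a region had 38.0% ± 3.55 in mutant cells and 71.8% ± 7.06 in wild-type cells (± SD, n = 3 per genotype; chr7:142969780-142970845). Just inside the tetraspanin gene Cd81 (chr7:143052905-143052996) mutant replicates were listed at 4.22%, 0 and 1.11%, against 0.556%, 0 and 0 in wild-type replicates, a difference of 1.59 points that was 0.370 without mutant replicate 1. Over the Tssc4 promoter window shown above (chr7:143069104-143069420; Tssc4 encodes a splicing factor), all mutant replicates were listed at 0 and the wild-type replicates at 0, 0 and 0.556%. On either side of that unmethylated stretch, regions in the Tssc4 span were lower by 30.04 and 26.5 points. In the taste channel gene Trpm5, 1 region had 70.3% ± 2.56 in mutant cells and 77.9% ± 3.72 in wild-type cells (± SD, n = 3 per genotype; chr7:143087186-143087809). That call was lost without mutant replicate 2 and without wild-type replicate 1 or 2, where the difference was -7.30 to -6.02 points. The tetraspanin gene Tspan32 had no candidate region in its span or within 5 kb.

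Kcnq1, a voltage-gated potassium channel gene whose span contains Kcnq1ot1, held the most members, with 30 in its span or within 5 kb. Ahead of its start (chr7:143105686-143106806), mutant replicates had 26.9%, 28.5% and 23.9%, against 51.1%, 58.3% and 55.2% in wild-type replicates. The loss there was 28.4 points, the largest at Kcnq1. The next 3 regions, over the start and the first kilobase, had mutant means of 0.357% to 1.92% and wild-type means of 0.852% to 6.64%. None was called in the main limma fit. The outer pair was called lower by limma on the logit scale and, on the percent scale, with a trend in the prior variance. Across the remaining 22 regions of the span, without the 3 at the Kcnq1ot1 start, the mutant averaged 70.1% ± 1.17 and the wild type 85.1% ± 1.27 (± SD, n = 3 per genotype). This set was chosen after the values were seen and leaves out the 4 uncalled Kcnq1 regions, so that all 22 were called lower follows in part from the choice, and the share over all candidate regions was 93.5%. Differences in the set ran from -23.9 to -7.78 points, and 4 regions were listed. The call at 1 of the 22 (chr7:143145438-143145828) was lost without wild-type replicate 2 or 3, where the difference was -8.58 or -9.38 points.

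**Figure D4:**
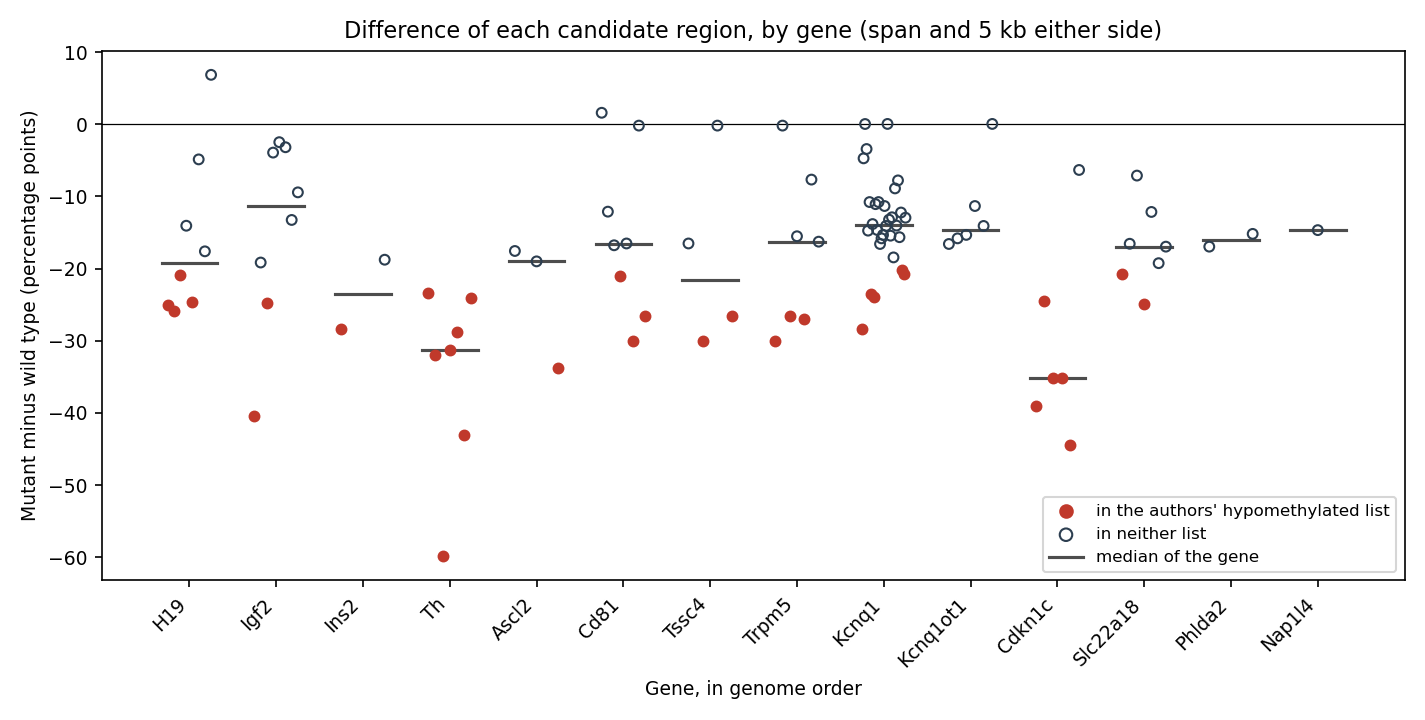
Difference in methylation level, mutant minus wild type in percentage points, of each candidate region in or within 5 kb of 14 genes, in genome order; filled points are in the authors' hypomethylated list and bars are medians. All 7 Th regions and 5 of 6 Cdkn1c regions are filled, and none of the 6 Kcnq1ot1 regions is, where 33.1% of all candidate regions are in that list. A region near several genes is drawn at each.

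Between Kcnq1 and Cdkn1c, 6 neighbouring regions of low wild-type level, a set chosen after the values were seen, averaged 5.98% ± 0.912 in mutant cells and 15.3% ± 0.586 in wild-type cells (± SD, n = 3 per genotype). The first of them (chr7:143444694-143445327) had 6.32%, 12.6% and 14.6% in mutant replicates, against 36.1%, 32% and 28% in wild-type replicates. It was listed, and its genotypes were well apart. Distal to Cdkn1c, all 7 regions of the transporter gene Slc22a18 were lower, by 7.11 to 24.9 points. Both regions near Phlda2, a placental growth inhibitor gene, were lower, by 15.2 and 17.0 points. The latter is also among the 7 regions of Slc22a18. The region at the end of Nap1l4, a histone chaperone gene, was lower by 14.7 points, with 30.8% ± 0.891 in mutant cells and 45.5% ± 3.32 in wild-type cells (± SD, n = 3 per genotype).

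Listed members held 10 to 60 CpGs with a median of 14, and 10 of the 39 had a metilene q under 0.05 in the authors' deposited table. No unlisted member was lower by 20 points or more; the largest unlisted loss was 19.9 points and the smallest listed one 20.3 points. RefSeq gene spans covered 78 of the 102 members, and whether these lay in exons or introns was not examined. At the edge of the window, the first member had 54.1% ± 3.22 in mutant cells and 79.7% ± 3.61 in the wild type, and the nearest region outside it 71.3% ± 3.12 in mutant cells and 87.3% ± 1.79 in wild-type cells (± SD, n = 3 per genotype).

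Genes of other imprinted domains were set beside these. Of 45 such genes in a list of textbook imprinted genes, 39 had a candidate region in their span or within 5 kb. At these 290 regions limma called 225 lower and 5 higher, the median difference was -13.7 points, and 48 were listed. Over all candidate regions the shares were 93.5% called lower, 0.0485% called higher and 33.1% listed. At Gnas, 7 of 21 regions were called lower and 2 higher, with a median of -6.67 points. At Igf2r and Airn, 22 of 31 were called lower and 1 higher, with a median of -12.0 points. In the H19 to Cdkn1c domain 0 of 102 were called higher, from which nothing is read, since the share over all candidate regions is so low. The difference between these loci was not tested.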

How the data were processed

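Whole-genome methylation was read in 12 progenitor samples, 6 per genotype, with a bisulfite and an enzymatic kit and paired reads of 100 bp, per the labels. The authors deposited methylation levels as a fraction per candidate region in 6 columns, 3 per genotype, without read counts; levels were multiplied to percent, and depth, and so counting error, is unknown. The sources used here do not say whether a column merges the 2 kits. The build is mm10, per the submitters' processing notes, and the file names point to metilene as the caller of the regions; its settings and the aligner are not stated in those sources. For each listed region the authors deposited both group means as a fraction, their difference (a score), a CpG count, and a q-value beside a second, adjusted p-value.

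Columns were assigned to genotype by name. Any pair of columns differed by a median of at least 2.44 points. Each of 107115 regions was fitted by limma 3.58.1 (R 4.3.3) using percent levels and no replicate block, and p-values were adjusted by Benjamini-Hochberg and called under 0.05; the fit was tested on simulated data. Alternatives were a replicate block, a logit scale (offset 0.01), 2 other variance priors, a threshold of 0.01, a minimum of 20 points, and each replicate left out. Named regions were the listed members, the largest loss per gene of the domain list, members with a mutant mean at or above the wild type, the 5 smallest differences, and those at H19, Igf2, Kcnq1ot1 and Cdkn1c. The members and lists were chosen with earlier results of these data known. Positions are as deposited; at all 1539 starts inside RefSeq promoter windows a CpG began 2 bases after the start, counted from 1. Spans came from RefSeq (GRCm38.p6), which held 44 of the 45 list genes. Python 3.11.15, numpy 2.4.6, pandas 2.3.3 and matplotlib 3.10.9 were used. The authors' values per CpG were not analysed here.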

Additional observations from a re-analysis of the deposited data

How the results depend on the processing

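The count of members called lower was 90 and lay between 87 and 96 over the 10 alternative limma fits; 85 members were called lower in all 11 fits and 5 in none. Among the 12 uncalled members, 7 were called lower in at least 1 alternative fit: 6 of low level on the logit scale, and the H19 start without wild-type replicate 1. The call was lost in at least 1 fit at 5 members, each with a loss of less than 11 points. A threshold of 0.01 left 84 members, and requiring 20 points as well as 0.05 left 39. The number called higher was 0, and 0 to 1 when single replicates were left out, the 1 being the region 2.35 kb upstream of H19 without mutant replicate 3. Members with separated replicates numbered 95, and 95 to 96 without single replicates. The median difference of -16.7 points ranged from -18.0 to -16.2 without single replicates. It was -25.8 points over the listed members only and -25.9 points with the group means of the authors' deposited table, since every listed member was at least 20 points lower. The mean level ranged from 47.5% to 48.8% in the mutant and from 66.0% to 66.4% in the wild type without single replicates. Among the 61 named regions, leaving out 1 replicate turned the sign of the difference at 2, the Kcnq1ot1 start and 1 region at the Kcnq1 start with almost no methylation. It moved 0 differences by more than their SD, but leaving out 1 of 3 replicates cannot move a difference that far. Nothing about robustness is read from that count. With the gene span alone the largest loss moved by more than its SD at Ins2, Ascl2, Cd81, Kcnq1 and Cdkn1c.

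The genotypes share replicate numbers, and the labels do not say whether the numbers pair the samples. Over all candidate regions, deviations from the group means correlated by 0.0049 to 0.05 between same-numbered columns. Between columns of different number the correlations were -0.051 to 0.012. These small values cannot decide whether the samples were paired. With the replicate block 89 members were called lower and 0 higher. At the other imprinted genes, an alternative added after seeing the data gave 8 regions called higher with the replicate block, against 5 without, and 2 to 7 when single replicates were left out; 209 to 226 were called lower. No coverage accompanied the levels, so how far depth limits single regions, above all the shortest ones, is unknown.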
